A study of Mus musculus with 8 samples.

Results

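Genes that build and load major histocompatibility complex (MHC) molecules were compared between hepatic macrophages of mice given recombinant CPS1 (rCPS1) and of mice given recombinant transferrin (rTF), both before an acetaminophen overdose. The members were the array rows annotated with exactly 1 gene symbol that begins with H2-, or that is B2m, Cd74, Ciita, Tap1, Tap2, Tapbp, Nlrc5 or Cd1d1, and a gene on several rows was represented by its brightest row, judged over all 8 arrays. This gave 41 genes of the 22180 tested. Another 11 genes, among them Cd74 (the invariant chain) and H2-D1 (a classical class I heavy chain), lay only on rows shared with other genes and were not analysed here.

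CPS1, carbamoyl phosphate synthetase 1, is a urea cycle enzyme of hepatocyte mitochondria, and transferrin is the iron carrier of plasma. The rTF group held 4 arrays from mice that received 25 µg of transferrin, and the rCPS1 group held 4 arrays from mice that received 50 µg of CPS1, each by the tail vein 12 h before 350 mg/kg of acetaminophen in the peritoneum. All were male FVB/N mice 8 weeks old, with no other allele or agent named, and no group went without acetaminophen. The dose of protein therefore changed together with the protein. Every title names the same mouse (Mouse1), so the labels leave unsettled if a group's 4 arrays stand for separate animals, and the spread behind each p-value is that of these samples and may be technical. Values are log2 expression levels summarised by RMA. They do not compare the abundance of one gene with that of another, and the number of arrays limits their precision.

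Class I molecules pair a heavy chain with β2-microglobulin (B2m) and show peptides from the cytosol to CD8 T cells and NK cells. TAP1 and TAP2 carry those peptides into the endoplasmic reticulum, and tapasin (Tapbp) bridges the transporter to empty class I. NLRC5 is a transactivator of class I genes. Class II molecules show endocytosed peptides to CD4 T cells, are loaded with the help of H2-DM, which H2-O restrains, and are governed by CIITA. In the liver, Kupffer cells, dendritic cells, B cells and sinusoidal endothelial cells can all carry class II. FVB/N mice bear the q haplotype of H2, in which the class II E molecule does not reach the surface. MHC genes differ in sequence between mouse strains, and the match of the array's probes to the FVB/N alleles was not tested here.

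No member passed the threshold of an adjusted p under 0.05 with limma (lowest 0.98 among the members), nor did any of the 22180 genes, a background of 0.0%. At an unadjusted p under 0.05, 3 of the 41 members stood out, Tap2 higher and H2-Eb2 and H2-Q10 lower with rCPS1. That is 7.32% of the members against 4.67% of all genes, so the members' share lay near the background; by direction, 1.88% of all genes were higher and 2.79% lower at this p. The groups overlapped for every one of the 41 members, while 2.92% of all genes had groups without overlap. With rCPS1, 19 members were higher and 22 lower, beside 45.6% of all genes higher. The median log2 difference was -0.0094 over the members and -0.018 over all genes. Without rTF replicate 2, or without rCPS1 replicate 3, 0 members had an unadjusted p under 0.05, and 1 did without rTF replicate 3, without rCPS1 replicate 4 or with arrays weighted by quality.

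**Figure D1:**
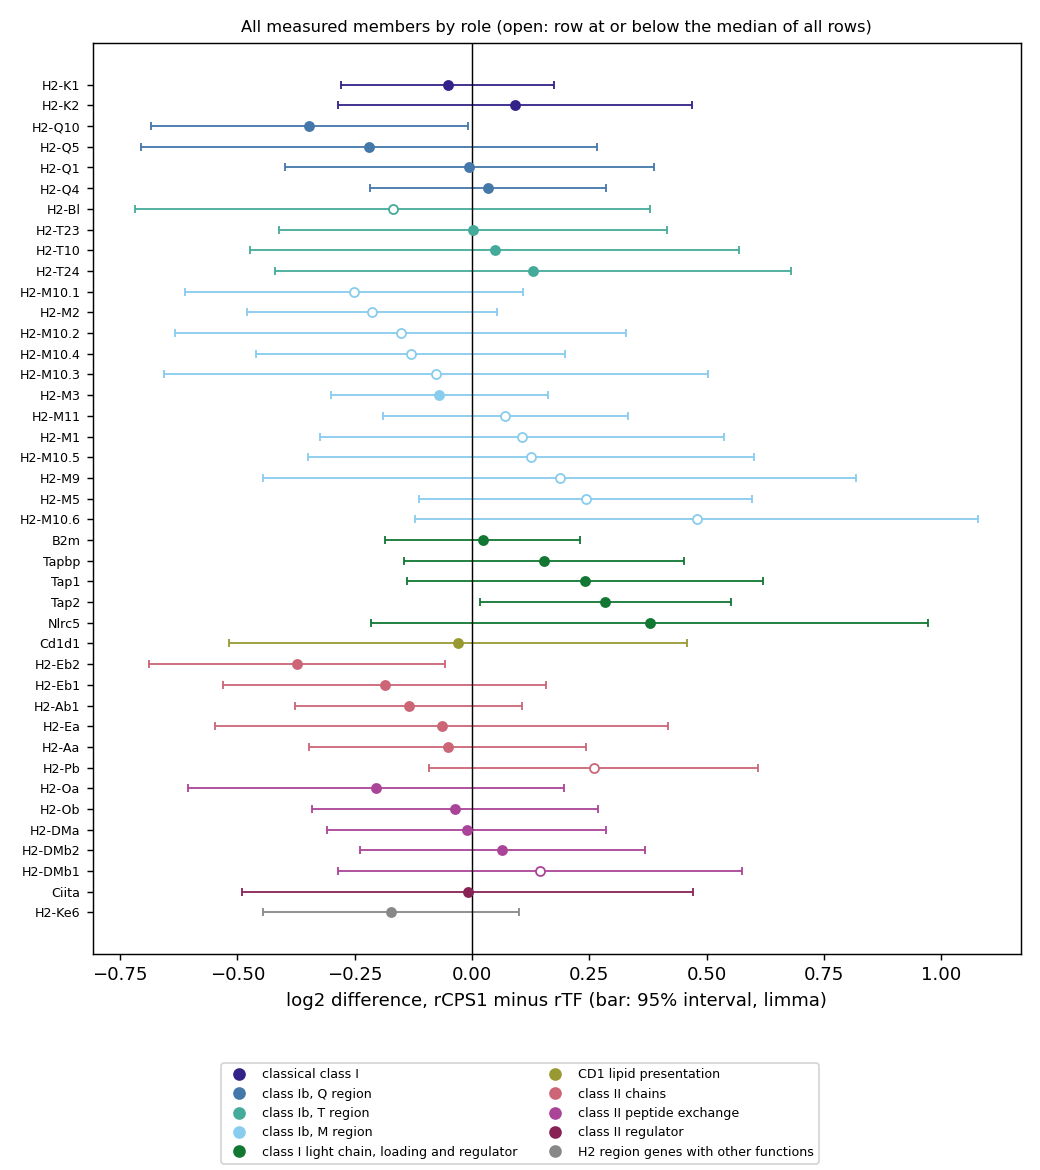
The horizontal axis gives the log2 difference, rCPS1 minus rTF, for each of the 41 members (vertical axis), with limma's 95% interval as a bar and colours for the roles. Filled points are rows brighter than the middle row of the array and open points the dimmer rows. The differences run from -0.37 for H2-Eb2 to 0.48 for H2-M10.6, and all but the intervals of Tap2, H2-Eb2 and H2-Q10 cross 0.

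The 27 class I members had a median log2 difference of 0.034, with 16 higher and 11 lower, and the 12 class II members one of -0.044, with 3 higher and 9 lower. The gap between these medians was 0.078. It turned to -0.0084 without rCPS1 replicate 2. The gap taken within single arrays, from median deviations, had a pooled SD of 0.081 between arrays of a group. That is a spread of single arrays and not the error of a difference between groups, which was not computed. Among the class I members the heavy chains stood at -0.0014, with 11 of 22 higher, and the light chain, loading and regulator genes at 0.24, with 5 of 5 higher.

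The same comparison can be made array by array, as the mean over members of each gene's deviation from its own average over the 8 arrays. For class I this deviation was 0.0039, -0.070, -0.051 and 0.049 in rTF replicates 1 to 4 and 0.033, -0.14, 0.024 and 0.15 in rCPS1 replicates 1 to 4. For class II it was 0.0098, 0.15, -0.12 and 0.061 with rTF and 0.045, -0.22, 0.015 and 0.056 with rCPS1. In both classes the rCPS1 arrays held the lowest value of the 8, in replicate 2. Class I minus class II averaged -0.042 ± 0.13 in the rTF arrays and 0.042 ± 0.051 in the rCPS1 arrays (SD, n = 4 each), and the groups overlapped. The rTF array farthest from the rest was replicate 2, where class I minus class II was -0.22.

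**Figure D2:**
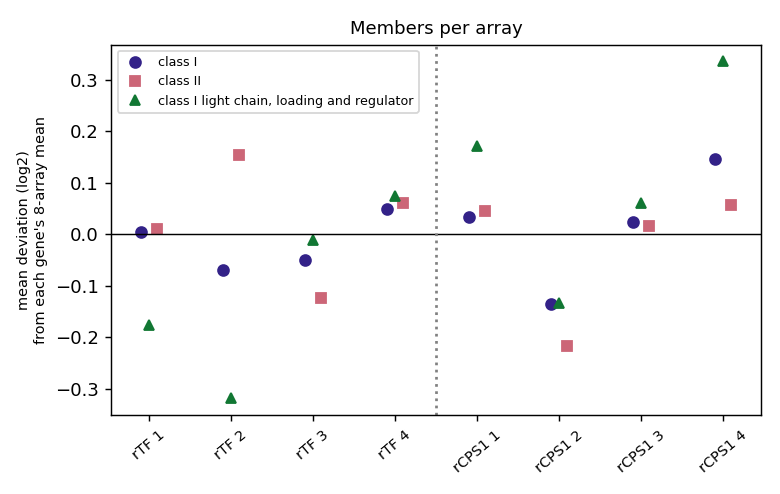
Each array is a position on the horizontal axis, and the vertical axis gives the mean deviation of the members from each gene's own average over the 8 arrays (log2), with circles for class I, squares for class II and triangles for the 5 light chain, loading and regulator genes. The triangles run from -0.32 in rTF replicate 2 to 0.34 in rCPS1 replicate 4, a wider range than that of either class.

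All 5 light chain, loading and regulator genes of class I were higher with rCPS1, and none passed after adjustment. Tap2 (probe set 17336458), a subunit of the peptide transporter, was at 7.31, 7.35, 7.37 and 7.58 with rTF and at 7.70, 7.48, 7.70 and 7.87 with rCPS1. The groups overlapped through rTF replicate 4 and rCPS1 replicate 2. The log2 difference was 0.28 ± 0.12 (SE), with a limma p of 0.039 and an adjusted p of 0.98. It ran from 0.22 to 0.35 when 1 array was left out.

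Tap1 (probe set 17336432), the other transporter subunit, was at 10.18, 10.07, 10.38 and 10.61 with rTF and at 10.69, 10.25, 10.39 and 10.86 with rCPS1, a difference of 0.24 ± 0.17 (SE). Replicates 1 and 4 of rCPS1 lay above all rTF arrays and the other two did not, and the difference was 0.14 when rCPS1 replicate 4 was left out and 0.34 when rCPS1 replicate 2 was. Nlrc5 (probe set 17504023), the class I transactivator, was at 6.49, 5.94, 6.98 and 6.99 with rTF and at 6.93, 6.44, 7.13 and 7.40 with rCPS1, a difference of 0.38 ± 0.27 (SE). Its low rTF value was that of replicate 2, and without that array the difference was 0.16 (0.56 without rCPS1 replicate 2). Tapbp (probe set 17336228), the tapasin gene, was at 9.25, 9.12, 9.27 and 9.23 with rTF and at 9.58, 9.23, 9.11 and 9.57 with rCPS1, a difference of 0.15 ± 0.13 (SE). As with Tap1, the 2 high rCPS1 arrays were replicates 1 and 4, and the difference was 0.082 when the first of these was left out and 0.24 when rCPS1 replicate 3 was. A second, dimmer row of Tapbp differed by -0.020.

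B2m (probe set 17375373) lay on a row brighter than 99.9952% of all array rows, and how far a change can show at that end of the scale was not tested. It was at 12.94, 12.99, 12.99 and 13.02 with rTF and at 12.998, 12.98, 13.02 and 13.03 with rCPS1, a difference of 0.022 with a 95% interval from -0.19 to 0.23. The classical heavy chain gene H2-K1 (probe set 17343710) was at 10.32, 10.49, 10.49 and 10.58 with rTF and at 10.46, 10.38, 10.398 and 10.43 with rCPS1, a difference of -0.052 with an interval from -0.28 to 0.18. All 4 rCPS1 values of H2-K1 fell inside the rTF range. H2-K2, its near-identical neighbour, was at 5.99, 5.68, 6.02 and 6.02 with rTF and at 6.19, 6.09, 5.54 and 6.25 with rCPS1, a difference of 0.091 ± 0.17 (SE), and the array may not separate the transcripts of the class I family.

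**Figure D3:**
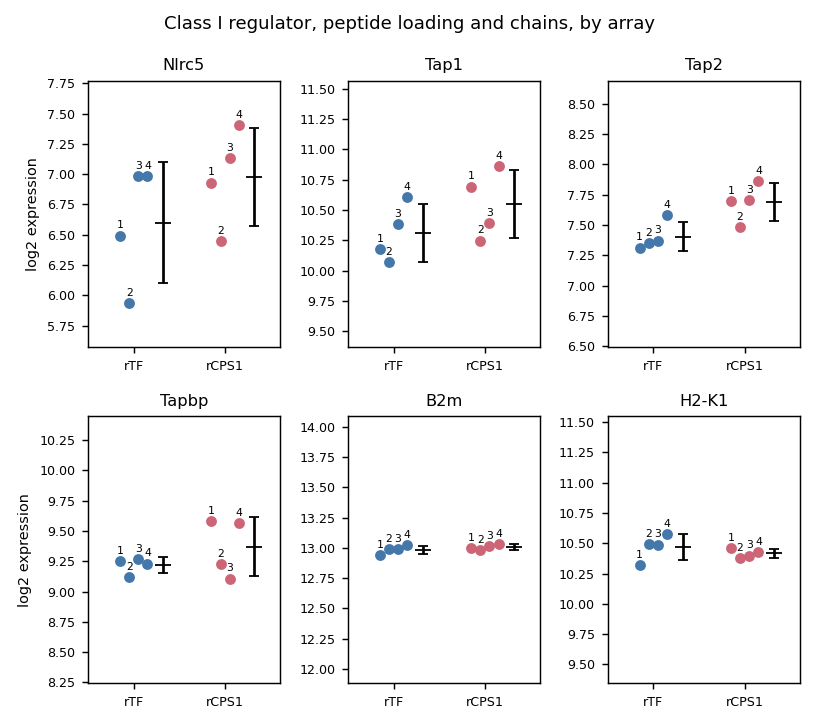
Log2 expression (vertical axes, each spanning 2.2 log2 units) of 6 class I genes by group, with 1 numbered point for each array and the group mean ± SD as a black bar. Tap2 has 3 of 4 rCPS1 arrays above all rTF arrays, and B2m and H2-K1 vary by less than 0.3 over the 8 arrays.

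The promoters of 3 of these genes are shown for the short elements known to govern class I genes. The stretches come from RefSeq, end at the base before a transcript start and are read 5′ to 3′ on the gene's strand of GRCm38.p6, a C57BL/6J assembly. They lie at chr17:34000348-34000497 on the minus strand for H2-K1, chr2:122147537-122147686 on the plus strand for B2m and chr17:34187331-34187555 on the plus strand for Tap1. H2-K1 has 2 listed starts, and the stretch shown for it lies inside the annotated gene (chr17:33996012-34000619). The Tap1 stretch is the whole interval up to the divergent start of Psmb9, an immunoproteasome subunit gene.
H2-K1: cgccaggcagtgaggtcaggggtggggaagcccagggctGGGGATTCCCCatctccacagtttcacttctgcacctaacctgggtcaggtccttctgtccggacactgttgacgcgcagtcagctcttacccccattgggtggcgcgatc
B2m: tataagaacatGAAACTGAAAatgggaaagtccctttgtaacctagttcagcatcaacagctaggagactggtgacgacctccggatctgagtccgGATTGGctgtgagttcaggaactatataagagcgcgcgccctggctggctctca
Tap1: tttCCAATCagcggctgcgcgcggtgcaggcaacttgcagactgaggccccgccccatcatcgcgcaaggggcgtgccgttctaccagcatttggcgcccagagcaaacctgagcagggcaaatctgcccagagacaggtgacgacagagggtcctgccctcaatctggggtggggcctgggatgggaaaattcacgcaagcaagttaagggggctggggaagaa
Capitals mark matches, on either strand, to 4 motifs: the Y box GATTGG bound by NF-Y, the X box core AACNGATG, the NF-kappaB site (spelled by the capitals of H2-K1) and the interferon-response core, GAAA and GAAA with any 2 bases between. In these stretches no matches overlap. H2-K1 holds the NF-kappaB site 111 to 101 bases before its start, a string found within 250 bases of the start in 0.0333% of the 27025 genes with a promoter entry. B2m holds the interferon-response core (3.46% of genes) 139 to 130 bases before its start and a Y box (16.6% of genes) at 54 to 49. In Tap1 the match is a Y box on the opposite strand, 222 to 217 bases before its start and next to the start of Psmb9. A match describes letters and is not a measured binding site. The motifs were searched as fixed strings, so an element spelled otherwise, an interferon-response element of H2-K1 included, would be missed.

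The neighbours of Tap1 in the pathway were measured as well. Psmb9 was at 7.16, 7.73, 7.35 and 7.54 with rTF and at 7.75, 7.24, 7.35 and 8.00 with rCPS1, a difference of 0.14 ± 0.19 (SE). All 5 immunoproteasome and activator genes were higher with rCPS1 (median 0.11), led by Psmb10 at 0.21 ± 0.14 (SE), with Psmb8, another catalytic subunit, at 0.11 ± 0.14. Their unadjusted p-values were all above 0.05. Among the trimming and loading helpers 2 of 5 were higher: the peptidase gene Erap1 differed by 0.17 ± 0.12, and the chaperone gene Calr by -0.070 ± 0.12.

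Non-classical class I genes went both ways. Those of the Q region had 1 of 4 higher and a median of -0.11. H2-Q10 (probe set 17337152), a secreted class I molecule made mainly by the liver, was at 7.21, 7.73, 7.53 and 7.27 with rTF and at 7.22, 7.23, 7.08 and 6.81 with rCPS1, a difference of -0.35 ± 0.15 (SE) with a limma p of 0.045 and an adjusted p of 0.98. Replicate 2 was the highest of the rTF arrays and replicate 4 the lowest of the rCPS1 arrays. The 2 rows of this gene disagreed. On its other row (probe set 17337142), of lower level, H2-Q10 went from 6.53 ± 0.080 with rTF to 6.75 ± 0.21 with rCPS1 (SD, n = 4 each), a difference of 0.22, and the mean of both rows differed by -0.066. The hepatocyte marker list averaged 7.58 ± 0.25 in the rTF group and 7.50 ± 0.30 in the rCPS1 group (SD, n = 4 each). It was also lowest in rCPS1 replicate 4 (7.07), but the other row of H2-Q10 was highest in that array (7.004). In rTF replicate 2, where the first row was highest, the list stood at 7.49, inside the rTF range of 7.30 to 7.89. The part of hepatocytes in the result was not tested.

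H2-Q5 (probe set 17337118) was at 4.82, 4.66, 4.42 and 4.77 with rTF and at 4.86, 3.76, 4.64 and 4.52 with rCPS1, a difference of -0.22 ± 0.22 (SE). One array, rCPS1 replicate 2, lay below the others, and without it the difference was 0.0092. A second row of H2-Q5 differed by -0.039. H2-Q4 (probe set 17337100) was at 8.28, 8.37, 8.25 and 8.49 with rTF and at 8.49, 8.21, 8.34 and 8.48 with rCPS1, a difference of 0.034 ± 0.11, and the groups covered nearly the same range. A second row of H2-Q4 differed by 0.12. H2-Q1 differed by -0.0059 ± 0.18.

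In the T region 3 of 4 genes were higher, with differences from -0.17 to 0.13. H2-T23, which encodes the Qa-1 molecule read by inhibitory NK cell receptors, went from 6.16 ± 0.24 to 6.16 ± 0.34 (SD, n = 4 each). H2-T24 was at 5.78, 6.86, 6.33 and 6.40 with rTF and at 6.85, 6.12, 6.15 and 6.77 with rCPS1, and H2-T10, whose product is bound by γδ T cells, went from 5.39 ± 0.40 to 5.44 ± 0.38. H2-Bl, at 2.47, 2.18, 3.24 and 3.02 with rTF and at 2.15, 2.92, 2.48 and 2.69 with rCPS1 (difference -0.17 ± 0.25, SE), lay on a dim row, one below the array's middle row. For all 4 genes the SD within each group exceeded the difference between the groups.

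The M region held 12 members, 6 higher and 6 lower, with a median of 0.0007, but only 1 of their rows was brighter than the array's middle row. That row was of H2-M3 (probe set 17337557), which presents formylated bacterial peptides and was at 7.90, 8.05, 7.83 and 7.89 with rTF and at 7.75, 7.83, 7.93 and 7.89 with rCPS1, a difference of -0.070 ± 0.10 (SE). The largest difference of any member, 0.48 ± 0.27 for H2-M10.6, a gene known from vomeronasal neurons, was on a dim row. H2-M10.6 was at 1.96, 1.71, 1.52 and 1.66 with rTF and at 2.16, 1.47, 2.999 and 2.11 with rCPS1, and without the high array, rCPS1 replicate 3, the difference was 0.21. H2-M2, at 3.44, 3.79, 3.51 and 3.58 with rTF and at 3.27, 3.29, 3.36 and 3.54 with rCPS1, differed by -0.21 ± 0.12, also on a dim row. The other 9 genes of the region differed by -0.25 to 0.24. Cd1d1 (probe set 17406482), which presents lipids to NKT cells, was at 5.60, 5.16, 4.61 and 5.09 with rTF and at 5.29, 4.84, 5.42 and 4.80 with rCPS1. Its groups overlapped throughout, and the difference was -0.030 ± 0.22. Cd1d2, its close relative, had a limma p of 0.045 (adjusted p = 0.98) on a row near the bottom of the scale, at 1.36 ± 0.26 with rTF and 1.75 ± 0.27 with rCPS1 (SD, n = 4 each). The presenter of vitamin B metabolites, Mr1, differed by 0.23 ± 0.16 (SE).

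Class II chain genes were mostly lower with rCPS1, 5 of 6 with a median of -0.10, and none passed after adjustment. H2-Eb2 (probe set 17336509), a second E beta chain gene, had the smallest p of all members. It was at 4.28, 4.50, 4.47 and 4.56 with rTF and at 4.41, 4.04, 3.82 and 4.06 with rCPS1. The groups crossed through the first replicate of each. The log2 difference was -0.37 ± 0.14 (SE), with a limma p of 0.025 and an adjusted p of 0.98, and it ran from -0.48 to -0.28 when 1 array was left out.

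The main A molecule showed smaller differences. H2-Ab1 (probe set 17336494), its beta chain, was at 12.22, 12.14, 11.94 and 12.15 with rTF and at 12.02, 11.86, 12.03 and 11.99 with rCPS1, a difference of -0.14 with a 95% interval from -0.38 to 0.11. Replicate 3 was low among the rTF arrays, and the other three lay above all rCPS1 arrays. H2-Aa (probe set 17343813), the alpha chain, was at 8.96, 9.27, 8.92 and 9.12 with rTF and at 8.97, 8.80, 9.25 and 9.05 with rCPS1, a difference of -0.052 with an interval from -0.35 to 0.24. The groups of H2-Aa overlapped throughout.

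Of the E chains, H2-Eb1 (probe set 17336502) was at 5.87, 6.26, 5.76 and 5.79 with rTF and at 6.03, 5.57, 5.57 and 5.77 with rCPS1, a difference of -0.19 ± 0.15 (SE), of which rTF replicate 2 held a large part: without that array it was -0.072. H2-Ea (probe set 17343827) was at 4.97, 5.93, 5.04 and 5.56 with rTF and at 5.35, 4.99, 5.49 and 5.41 with rCPS1, a difference of -0.065 ± 0.22. Again replicate 2 was the highest rTF array, and without it the sign turned, to 0.12. H2-Pb, a class II pseudogene on a dim row, was at 3.27, 2.92, 2.78 and 2.82 with rTF and at 2.95, 3.21, 3.52 and 3.14 with rCPS1, a difference of 0.26 ± 0.16.

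**Figure D4:**
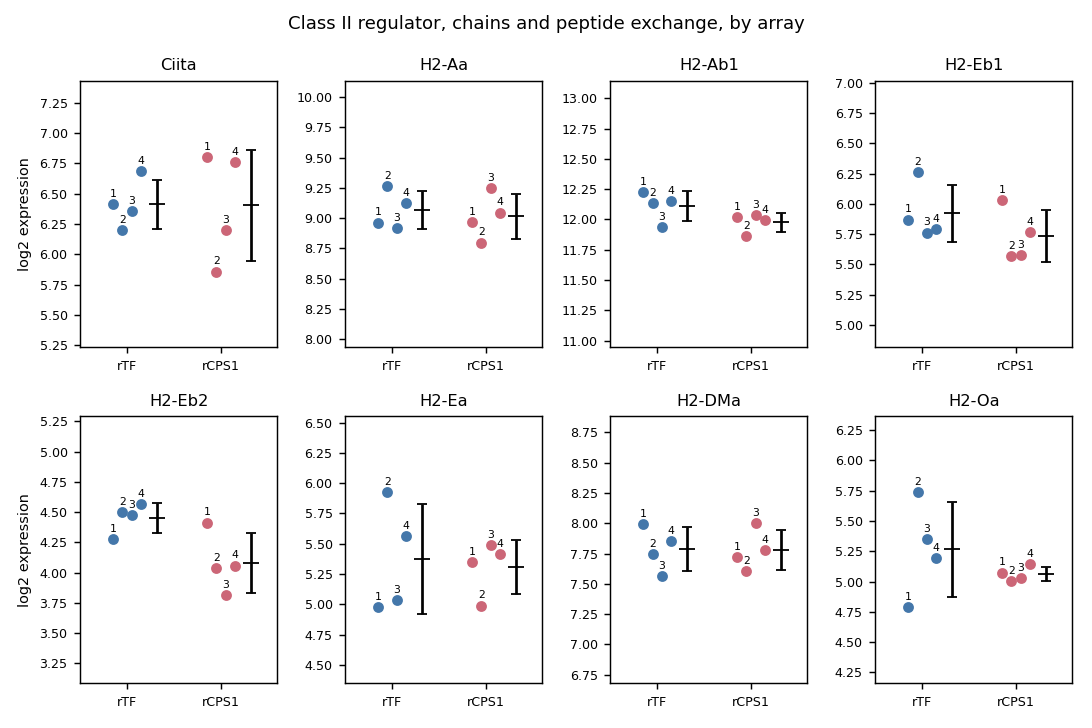
Log2 expression (vertical axes, each spanning 2.2 log2 units) of 8 class II genes by group, with 1 numbered point for each array and the group mean ± SD as a black bar. H2-Eb2 has 3 of 4 rCPS1 arrays below all rTF arrays, and rTF replicate 2 is the highest array for H2-Eb1, H2-Ea, H2-Oa and H2-Aa.

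The class II regulator and the peptide exchange genes, whose median difference was -0.012 with 2 of 5 higher, went both ways. Ciita (probe set 17322842) was at 6.42, 6.20, 6.36 and 6.69 with rTF and at 6.81, 5.86, 6.20 and 6.76 with rCPS1, a difference of -0.0094 ± 0.22 (SE). The rCPS1 arrays of Ciita spread more widely than the rTF arrays, with an SD of 0.46 against 0.20. H2-DMa (probe set 17336407), a chain of the peptide editor, was at 7.99, 7.75, 7.56 and 7.85 with rTF and at 7.72, 7.61, 8.00 and 7.78 with rCPS1, a difference of -0.012 ± 0.13. H2-DMb1 and H2-DMb2 are near-identical beta chain genes whose signals the array may not separate. H2-DMb1, on a dim row, was at 3.38, 2.89, 2.70 and 2.71 with rTF and at 3.13, 2.69, 3.42 and 3.03 with rCPS1, a difference of 0.14 ± 0.19 that was 0.028 when rCPS1 replicate 3 was left out and 0.30 when rTF replicate 1 was. H2-DMb2 was at 3.81, 4.08, 3.74 and 4.19 with rTF and at 3.95, 3.95, 3.95 and 4.23 with rCPS1, a difference of 0.065 ± 0.14. The highest of its rCPS1 arrays was replicate 4. H2-Oa (probe set 17336396), a chain of the inhibitor of H2-DM, was at 4.79, 5.74, 5.35 and 5.19 with rTF and at 5.07, 5.01, 5.03 and 5.14 with rCPS1. Its difference of -0.20 ± 0.18 was -0.048 without rTF replicate 2, its highest array. H2-Ob, its partner, was at 5.16, 5.20, 4.90 and 5.10 with rTF and at 5.14, 4.83, 4.91 and 5.33 with rCPS1, a difference of -0.036 ± 0.14. H2-Ke6, named for its place in the H2 region but encoding a steroid dehydrogenase, was at 6.35, 6.48, 6.04 and 6.32 with rTF and at 6.21, 6.19, 6.04 and 6.06 with rCPS1, a difference of -0.17 ± 0.12 (SE).

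The promoters of 4 class II genes are shown because they hold the boxes through which CIITA is known to act, with the same marking as above. They lie at chr17:34287824-34287973 on the minus strand for H2-Aa, chr17:34305717-34305866 on the plus strand for H2-Eb1, chr17:34325525-34325674 on the plus strand for H2-Eb2 and chr17:34153041-34153190 on the plus strand for H2-DMb1. The H2-Eb2 stretch lies inside the annotated gene (chr17:34325503-34341410).
H2-Aa: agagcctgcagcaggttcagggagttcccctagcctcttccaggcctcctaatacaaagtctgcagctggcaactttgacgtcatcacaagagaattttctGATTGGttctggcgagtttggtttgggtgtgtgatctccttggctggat
H2-Eb1: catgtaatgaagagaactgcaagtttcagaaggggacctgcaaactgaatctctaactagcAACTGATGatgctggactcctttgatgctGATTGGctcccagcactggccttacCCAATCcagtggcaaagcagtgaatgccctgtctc
H2-Eb2: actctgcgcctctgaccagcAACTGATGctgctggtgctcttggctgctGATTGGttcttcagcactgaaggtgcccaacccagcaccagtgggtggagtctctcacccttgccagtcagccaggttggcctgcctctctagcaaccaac
H2-DMb1: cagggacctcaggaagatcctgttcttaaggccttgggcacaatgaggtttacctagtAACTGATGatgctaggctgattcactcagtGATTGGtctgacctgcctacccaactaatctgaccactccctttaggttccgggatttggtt
Of the 41 members 28 had a promoter entry. All 8 class II members among them held a Y box within 250 bases of the start, as did 12 of 16 class I heavy chain members and 16.6% of all genes. The X box core was found in 4 of the 8 class II members (H2-Eb1, H2-Eb2, H2-DMb1 and H2-DMb2), in 1 of the 16 heavy chain members (H2-M10.4) and in 2.27% of all genes. In H2-Eb1 it lay 89 to 82 bases before the start with the Y box at 60 to 55 (and a second Y box on the opposite strand at 35 to 30), in H2-Eb2 at 130 to 123 with the Y box at 101 to 96, and in H2-DMb1 at 92 to 85 with the Y box at 62 to 57. Of the motifs searched, H2-Aa matched the Y box alone, at 49 to 44. The X box core was searched as a fixed string, so an X box spelled otherwise would be missed, in H2-Aa and in the others. The 4 class II genes that matched both motifs did not share a sign. H2-Eb1 and H2-Eb2 were lower with rCPS1 (-0.19 and -0.37). H2-DMb1 and H2-DMb2 were higher (0.14 and 0.065), the last of which turned to -0.0073 without rTF replicate 3.

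The other genes of the pathway gave 1 of 38 measured genes with an unadjusted p under 0.05 (Cd1d2, higher) and 0 after adjustment, with 16 higher and 22 lower and a median difference of -0.041. Each of the 7 class II promoter factors was lower, by at most 0.19: the RFX subunit gene Rfxap differed by -0.19 ± 0.15 (SE) and the NF-Y subunit gene Nfyc by -0.15 ± 0.12. Of the proteases and turnover genes 5 of 6 were lower, with the thiol reductase gene Ifi30 at -0.11 ± 0.13 and Ctsl, a lysosomal protease gene, at -0.080 ± 0.11. Co-stimulatory genes had 2 of 6 higher. The ligand gene Cd80 differed by -0.27 ± 0.18 and Cd274, which encodes the inhibitory ligand PD-L1, by 0.27 ± 0.17.

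Interferon-gamma is the main inducer of both classes, and its relay held 4 genes higher and 3 lower with rCPS1. Ifng was at 5.92, 6.69, 5.63 and 6.22 with rTF and at 5.92, 5.05, 5.59 and 5.77 with rCPS1, a difference of -0.53 ± 0.25 (SE) with a limma p of 0.058 and an adjusted p of 0.98. Its highest array, rTF replicate 2, was also the highest for the T and NK cell marker list (8.32, with 6.95 to 7.28 for the rest of that group and 6.52 to 7.15 for rCPS1), and the part of those cells in the Ifng difference was not tested. The receptor chain gene Ifngr2 differed by -0.17 ± 0.11. Irf1, a transcription factor induced by the cytokine, was at 10.02, 9.80, 10.401 and 10.36 with rTF and at 10.49, 10.15, 10.15 and 10.41 with rCPS1, a difference of 0.15 ± 0.16.

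Across the 8 arrays, 20 pairs of a regulator and a second gene, not always a known target, were set against each other. This family was chosen after the levels had been seen. Nlrc5 and Tap1 had Pearson r = 0.86 (exact permutation p = 0.00528, adjusted p = 0.0635 over the 20 pairs) and Spearman rho = 0.81 (exact permutation p = 0.0218, adjusted p = 0.14). The r was 0.77 without rTF replicate 2 and rCPS1 replicate 2, the arrays farthest from the median of Nlrc5, and 0.82 after the group means were removed. Irf1 and Tap1 had r = 0.86 (exact permutation p = 0.00635, adjusted p = 0.0635) and rho = 0.86 (exact permutation p = 0.0107, adjusted p = 0.107), with r = 0.73 without rTF replicates 1 and 2. Nlrc5 and Tap2 had r = 0.77 (exact permutation p = 0.0241, adjusted p = 0.0962) and rho = 0.79 (exact permutation p = 0.0279, adjusted p = 0.14), with r = 0.83 without the same arrays as for Tap1 and 0.76 after the group means were removed. Ciita and Tap1, a class II regulator and a class I gene, had r = 0.78 (exact permutation p = 0.0224, adjusted p = 0.0962) and rho = 0.67 (exact permutation p = 0.0831, adjusted p = 0.277), with r = 0.83 without rCPS1 replicates 1 and 2 and 0.90 after the group means were removed. Irf1 and Nlrc5 had r = 0.82 (exact permutation p = 0.0122, adjusted p = 0.0812), with r = 0.41 without rTF replicates 1 and 2. Their rho was 0.52 (exact permutation p = 0.197, adjusted p = 0.432). Nlrc5 and B2m had r = 0.66 (exact permutation p = 0.0733, adjusted p = 0.21) and rho = 0.86 (exact permutation p = 0.0107, adjusted p = 0.107). Nlrc5 had r = 0.52 with Tapbp (exact permutation p = 0.185, adjusted p = 0.37) and r = 0.11 with H2-K1 (exact permutation p = 0.79, adjusted p = 0.831). Ciita was paired with 9 of the 11 class II chain and exchange genes, H2-Eb2 and H2-Pb not being among them, and r ran from -0.081 (H2-Oa, exact permutation p = 0.856, adjusted p = 0.856) to 0.70 (H2-Ob, exact permutation p = 0.0597, adjusted p = 0.199). With H2-Ab1 the r of Ciita was 0.34 (exact permutation p = 0.403, adjusted p = 0.62), and rho was 0.24 (exact permutation p = 0.582, adjusted p = 0.785). That r was -0.033 without rCPS1 replicates 1 and 2, so it rests on those arrays. Irf1 and H2-Ab1 had r = -0.41 (exact permutation p = 0.306, adjusted p = 0.557), which was 0.32 without rTF replicates 1 and 2. Ciita had r = 0.63 with Irf1 (exact permutation p = 0.0913, adjusted p = 0.228) and 0.57 with Nlrc5 (exact permutation p = 0.141, adjusted p = 0.313). No pair passed an adjusted p of 0.05, and values from the same array share its normalisation.

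**Figure D5:**
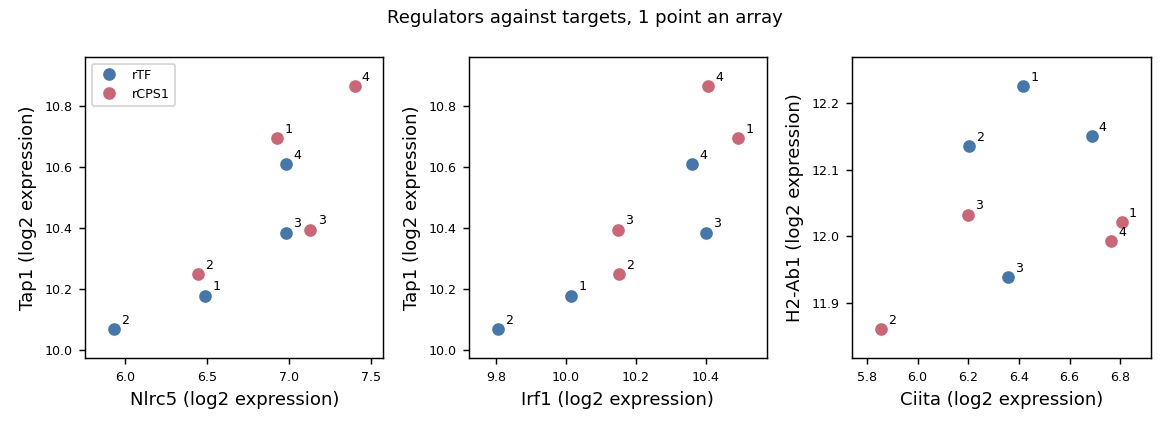
Each point is an array, numbered by replicate and coloured by group, with the log2 expression of a regulator on the horizontal axis and of a target on the vertical axis. Tap1 is lowest in rTF replicate 2, the array lowest in both Nlrc5 and Irf1, whereas Ciita and H2-Ab1 (r = 0.34) share no such order beyond their lowest array, rCPS1 replicate 2.

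Markers of the cells the preparation could hold were all brighter than the array's middle row (44 of 44 measured, in 8 lists), those of the labelled macrophages and those of other cells alike. So were 12384 of the 22180 genes tested, so passing this level says little of which cells were present. Kupffer cell markers averaged 9.38 to 9.95 per array with rTF and 9.47 to 10.35 with rCPS1, with 6 of 6 higher. Monocyte markers were lower with rCPS1 (8.10 to 8.46, against 8.83 to 9.36), as were neutrophil markers (5.53 to 6.58, against 7.004 to 7.97). Dendritic cell markers, whose cells carry much class II, ran from 6.34 to 6.80 with rTF and from 6.41 to 6.45 with rCPS1, with 5 of 6 lower. B cell markers ran from 5.39 to 6.39 and from 5.42 to 6.69, with 5 of 5 higher. They were low in rCPS1 replicate 2 (5.42), the array lowest in class II, and in rTF replicate 1 (5.39). Sinusoidal endothelial markers ran from 11.66 to 11.83 and from 11.69 to 11.83, with 3 of 5 higher. The part of these cells in the members' values was not tested. In such a mixture fewer cells of a type and less RNA per cell cannot be told apart.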

How the data were processed

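Total RNA of hepatic macrophages was measured on 8 arrays, 4 a group, grouped by their titles. The deposited values are log2 levels, made by the authors with RMA, per the submitters' processing notes, which also name limma; versions, probe filters and the build of the array design are not given in the sources used here. RMA brings the arrays to a common distribution, so a shift of most genes would be hidden. Of 41345 rows, 23521 had 1 symbol and gave 22180 genes (highest mean row, no filter on dim rows). By Entrez ID 23328 rows matched the RefSeq gene table, which changed 0 symbols. Array medians were 3.55 to 3.68, and r between arrays, taken across rows, was 0.967 to 0.983.

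The test was the two-sided moderated one of limma 3.58.1 (R 4.3.3) without covariates, with p-values adjusted over all genes by Benjamini-Hochberg at a threshold of 0.05. Intervals are 95% intervals of the moderated test. The fit was tested on simulated data.

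Members and lists were chosen with earlier results of these data known. Array values are given for the regulators, loading genes, class II chains and exchange genes, and, by role, for the 2 members of smallest p and the one of highest level; pathway genes are named at an unadjusted p under 0.05 and otherwise the 2 of smallest p in a role. Psmb9, Irf1, H2-Q1, H2-T10 and H2-T23 were chosen after their values were seen. Alternatives were a filter on dim rows, the mean of a gene's rows, trended and robust variance, array weights, a replicate block, quantile normalization, aligned medians and each array left out. Promoter stretches come from RefSeq (GRCm38.p6).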

Additional observations from a re-analysis of the deposited data

Results flagged for a closer look

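Dixon's ratio was used to find an array far from the other arrays of its group; chance alone passes it in about 1 of 20 groups. Of 64 groups of values 3 stood apart, against 3.2 expected. H2-DMb2 was at 4.23 in rCPS1 replicate 4 and at 3.95 in the other rCPS1 arrays. H2-K2 was at 5.68 in rTF replicate 2 and between 5.99 and 6.02 in the other rTF arrays. The mean deviation of the class II members was -0.22 in rCPS1 replicate 2 and between 0.015 and 0.056 in the other rCPS1 arrays.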

How the results depend on the processing

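In limma, 0 genes passed after adjustment under each of the 15 alternatives, with 888 to 1240 at an unadjusted p under 0.05 (609 of 12384 where dim rows were left out). The class I median stayed between 0.002 and 0.048, but was -0.0014 over heavy chains only. The class II median ran from -0.11 to 0.04, positive only without rCPS1 replicate 2. The gap between class I and class II ran from -0.0084 to 0.12 with 1 array left out, and stayed between 0.078 and 0.092 under the other alternatives. Among the latter, the replicate block and the trended and robust variance cannot move a difference, only its p-value. The median of all genes was -0.018 in the main fit, -0.027 with quantile normalization and -0.035 with aligned medians. In those 2 alternatives the class I median was 0.015 and 0.017, and the class II median was -0.075 and -0.061. The 29 members followed were a list of named genes and, by role, the 2 of smallest p and the brightest. Some were thus picked on these same data, and each fit without 1 array shares the rest with the main fit. Of the 29, 18 kept their sign throughout, all 5 light chain, loading and regulator genes among them. That count is therefore not independent support. The sign turned in 11. With 1 array left out, Cd1d1 ran from -0.20 to 0.13 (0.013 with array weights), Ciita from -0.14 to 0.17, H2-Aa from -0.13 to 0.021, H2-DMa from -0.088 to 0.057, H2-DMb2 from -0.0073 to 0.14, H2-Ob from -0.13 to 0.038 and H2-Ea from -0.20 to 0.12. H2-Bl ran from -0.35 to 0.0024, H2-Q4 from -0.0024 to 0.090, H2-Q5 from -0.36 to 0.0092 and H2-T24 from -0.057 to 0.30. The cause was not tested.

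Same-numbered arrays did not deviate together over all genes (r from -0.12 to 0.025, and 0 of 8 arrays correlated best with their own number). This does not settle if same-numbered samples were handled together. Both groups hold the same replicate numbers, so a replicate block cannot change a group difference. The class I and class II medians (0.034 and -0.044) and their gap (0.078) therefore stayed as they were, which tests nothing. The block can change the p-values, and with it 0 genes passed in limma (997 at an unadjusted p under 0.05). The members under that unadjusted threshold were then H2-Q10, Nlrc5 and Tap2, and H2-Eb2 was no longer among them. Only 27 of the 41 members lay on rows brighter than the array's middle row, beside 12384 of the 22180 genes tested. Dim rows limit what can be seen of the other members.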
